A study of Mus musculus with 15 samples.

Results

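The genes described here encode the machinery that copies DNA and supplies its building blocks. A list of 45 symbols was looked up in the annotation of the Affymetrix array, and 44 were found; 1 listed gene was not matched to a probe set and is not analysed here. Each gene was represented by 1 probe set, the one with the highest mean over the 15 arrays. All 44 passed the filter on low values, among 15498 genes tested.

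The arrays measured mouse CD4+ T cells driven towards 3 helper lineages, Th1, Th9 and Th17, and compared activation by antigen with activation by antibodies. The T cells were naive, came from spleen and lymph nodes of 3A9 mice, and carried a transgenic T cell receptor for hen egg lysozyme (HEL), for which they were sorted with an antibody to that receptor. In the groups called HA, irradiated (30 Gy) splenocytes from wild-type mice presented HEL, at 1 μg/ml in Th9 cultures and 2 μg/ml in Th1 and Th17 cultures. In the groups called PBAB, the stimulus was antibody fixed to the plate, against CD3 (1 μg/ml) and CD28 (10 μg/ml), with no splenocytes named. Th1 cultures received IL-12 (10 ng/ml) and anti-IL-4 (10 μg/ml). Th9 cultures received IL-4 (10 ng/ml) and TGF-beta (1 ng/ml). Th17 cultures received TGF-beta (3 ng/ml), IL-6 (10 ng/ml), IL-1alpha (5 ng/ml) and antibodies to IFN-gamma (20 μg/ml), IL-4 (10 μg/ml) and IL-12 (10 μg/ml). RNA was taken after 4 days. Each of the 6 activated groups had 2 biological replicates, and each lineage had 1 array labelled APC alone, for which the labels give no stimulus. Because HEL and the splenocytes go together, and the antigen dose differs between lineages, neither can be told apart from HA or from lineage.

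Values are log2 RMA expression, so a difference of 1 is a 2-fold change. A gene was called when its Benjamini-Hochberg adjusted p in limma, over all 15498 genes, was under 0.05. Differences are given as PBAB minus HA with the standard error (SE) of the fit. The arrays stood in 2 blocks. Correlations between arrays were 0.982 to 0.987 within activated groups and 0.924 to 0.982 between them, but 0.375 to 0.572 between APC alone and activated arrays. The APC alone arrays go against the label of CD4+ T cells that they share with the rest. The summed level of 14 macrophage and monocyte markers was 25066 to 31569 there, against 485 to 3206 under HA and 492 to 946 under PBAB, while that of 11 T cell markers was 1649 to 3395, against 21769 to 30284 and 22274 to 26314. The bacterial spike-in bioB read 13.71 to 14.01 on the APC alone arrays and 9.0 to 11.05 on the others. APC alone is therefore given as a separate comparison, in which its single arrays are assumed to vary like the activated groups. In a bulk sample, fewer cells in S phase and less RNA per cell cannot be told apart.

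Replication begins when the origin recognition complex, Cdc6 and Cdt1 load the ring-shaped MCM helicase on DNA. Cdc45 and the GINS complex then turn the helicase on, primase lays down RNA primers, and the polymerases extend them on the sliding clamp PCNA, which the RFC complex loads. Ribonucleotide reductase, thymidine kinase and thymidylate synthase supply deoxynucleotides. Many of these genes are transcribed on entry into S phase under the control of E2F factors, and naive T cells switch them on when they are activated.

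E2F binding sequences were looked for in the promoters of the genes, since the genes are known as E2F targets and most moved together. RefSeq promoters (GRCm38.p6, 250 bases before to 50 after each start) were given for 37 of the 44 genes. Of 4 sequences searched on both strands, TTTCCCGC was found in 6 of 37 genes (16.2%, against 1.24% of 27025 genes in the table), TTTGGCGC in 6 (16.2%, against 0.585%), TTTCGCGC in 7 (18.9%, against 0.374%) and TTTGCCGC in 0 (against 0.507%). At least 1 of the 4 was present in 14 of 37 genes (37.8%), against 2.6% of all genes in the table and 2.26% of its 32851 promoters. The members' promoters were richer in G and C, with a median of 61.3% against 52.7%, and the GC box GGGCGG was in 29 of 37 (78.4%, against 38.2%). CCAAT was in 21 (56.8%, against 41.1%) and TTTGAA, the CHR element of genes expressed late in the cell cycle, in 5 (13.5%, against 20.2%). Matches of different E2F sequences can overlap by some bases, as in Mcm5 and Mcm6.

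The 9 genes with a match before the start are shown in order of their difference between activations, largest decrease first, because they span the range from the third largest decrease to the smallest. Each window holds the match, in capitals, and up to 30 bases on either side, 5′ to 3′ on the strand of the gene.
Cdc6 (chr11:98907983-98908050, + strand): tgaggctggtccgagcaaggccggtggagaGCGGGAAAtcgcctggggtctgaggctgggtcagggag
Pola1 (chrX:93632256-93632323, - strand): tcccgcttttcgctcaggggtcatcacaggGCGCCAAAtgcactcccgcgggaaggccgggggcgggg
Mcm5 (chr8:75109326-75109397, + strand): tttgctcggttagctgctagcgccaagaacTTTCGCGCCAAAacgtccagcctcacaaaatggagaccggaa
Mcm7 (chr5:138172011-138172078, - strand): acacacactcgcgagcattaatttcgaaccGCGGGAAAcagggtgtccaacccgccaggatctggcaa
Uhrf1 (chr17:56304098-56304165, + strand): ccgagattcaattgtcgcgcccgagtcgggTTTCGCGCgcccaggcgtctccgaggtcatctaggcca
Gins3 (chr8:95633488-95633555, + strand): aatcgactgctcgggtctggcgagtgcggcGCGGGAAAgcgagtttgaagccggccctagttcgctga
Mcm6 (chr1:128359715-128359845, - strand): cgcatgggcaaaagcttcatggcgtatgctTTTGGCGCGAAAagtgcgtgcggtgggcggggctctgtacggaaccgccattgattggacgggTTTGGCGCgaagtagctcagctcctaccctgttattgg
Orc1 (chr4:108579397-108579453, + strand): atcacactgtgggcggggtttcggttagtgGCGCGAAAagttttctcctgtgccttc
Rfc3 (chr5:151651209-151651248, - strand): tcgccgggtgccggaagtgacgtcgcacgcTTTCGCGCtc

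The match began 138 bases before the start in Cdc6 and in Pola1, 165 in Mcm7, 185 in Uhrf1 and 41 in Gins3. Mcm5 has overlapping matches at 153 and 149 bases before the start, and Mcm6 has 3, at 110, 106 and 47. The matches of Orc1 and Rfc3 begin 27 and 10 bases before the start. A match was present in 11 of 32 called genes with a promoter and in 3 of 5 not called (Mcm6, Orc1 and Rfc3). Rrm2 and Tk1, with the largest decreases, had none in this window. A match describes letters, and binding was not measured.

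All 44 genes had a lower mean under PBAB than under HA when the 3 lineages were averaged, and 39 of them were called lower and 0 higher. Over all genes 30.6% were called in this comparison, 17.3% lower and 13.2% higher. The median difference of the 44 genes was -1.14, against 0.02 for all genes tested. In 29 of 44 genes every one of the 6 PBAB arrays was below every one of the 6 HA arrays, as in 6.48% of all genes, and in 0 was every PBAB array above every HA array, as in 4.65% of all genes. The decreases ran from 5.30-fold in Rrm2 to 1.05-fold in Rfc3, which was not called.

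**Figure D1:**
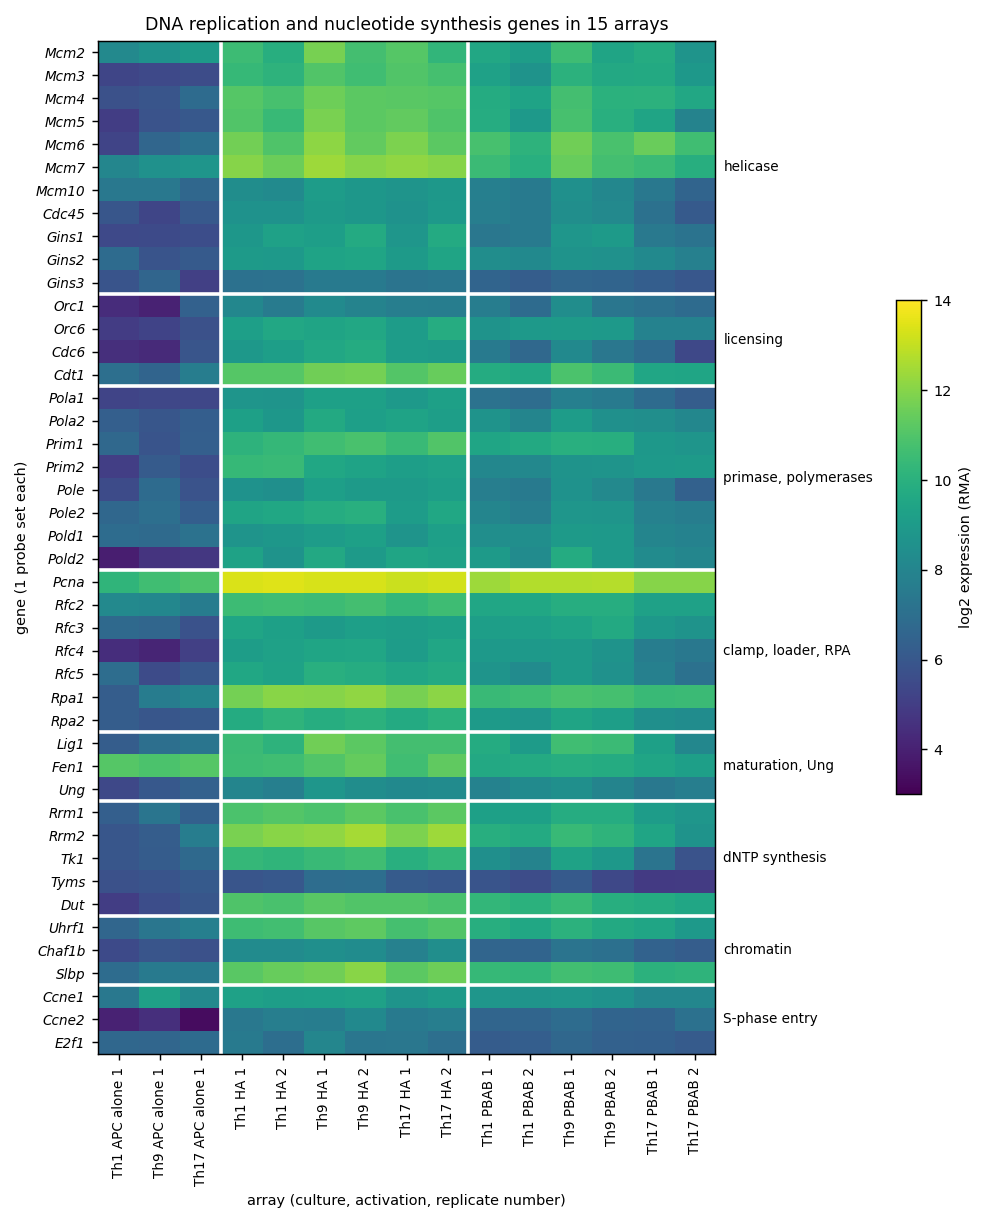
Log2 expression (RMA, colour scale) of the 44 genes (rows, 1 probe set each, grouped by role) in the 15 arrays (columns, by activation and lineage). The group median over the genes is 6.10 to 6.31 in APC alone, 9.42 to 9.78 under HA and 8.22 to 9.03 under PBAB, and 34 of 44 genes have all 3 APC alone arrays below all 12 activated arrays.

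Within lineages, 27 of 44 genes were called lower in Th1 cultures (14.6% of all genes called, 9.4% lower and 5.22% higher), 27 in Th9 cultures (13.7%, 6.32% lower and 7.39% higher) and 37 in Th17 cultures (17.1%, 10.4% lower and 6.66% higher). None was called higher in any lineage. In a fit with the replicate number as a block, more members were called in each lineage, as given in the closing section. Leaving out single arrays moved the Th1 count both ways. The share of all genes called in those fits is not given, so a loss of calls over all genes cannot be told apart. Over all genes the Th1 calls split into 809 higher and 1457 lower, and into 1122 and 1269 after quantile normalization. The median difference was -0.95 in Th1, -0.94 in Th9 and -1.50 in Th17 cultures, against 0.03, 0.01 and -0.00 over all genes. Both PBAB arrays were below both HA arrays in 41 of 44 genes in Th1 (26.8% of all genes), 39 in Th9 (22%) and 43 in Th17 cultures (28.5%). The Th1 count fell to 16 without Th1 HA replicate 1, 15 without Th1 HA replicate 2 and 12 without Th1 PBAB replicate 2. The Th9 count fell to 16 and 15 without Th9 HA replicates 1 and 2, and to 14 without Th9 PBAB replicate 2. The averaged count was 39 to 42 without any single array.

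The highest and the lowest of the activated groups were the same for most members. Of the 6 activated groups, Th9 HA was the highest in 38 of 44 genes and Th17 PBAB the lowest in 38. This order was not counted over all genes tested, so it cannot be called particular to the members. The median over the genes was 9.47, 9.78 and 9.42 under HA in Th1, Th9 and Th17, and 8.76, 9.03 and 8.22 under PBAB. The 3 HA medians thus lay close together, while the Th17 PBAB median was the lowest of the activated groups. In same-numbered pairs of arrays, which the data tie together, the median difference was -0.88 and -1.04 in Th1, -0.80 and -0.97 in Th9, and -1.25 and -1.77 in Th17 cultures. In each pair 41 to 44 of 44 genes were below 0, against 45.36% to 53.03% of all genes.

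**Figure D2:**
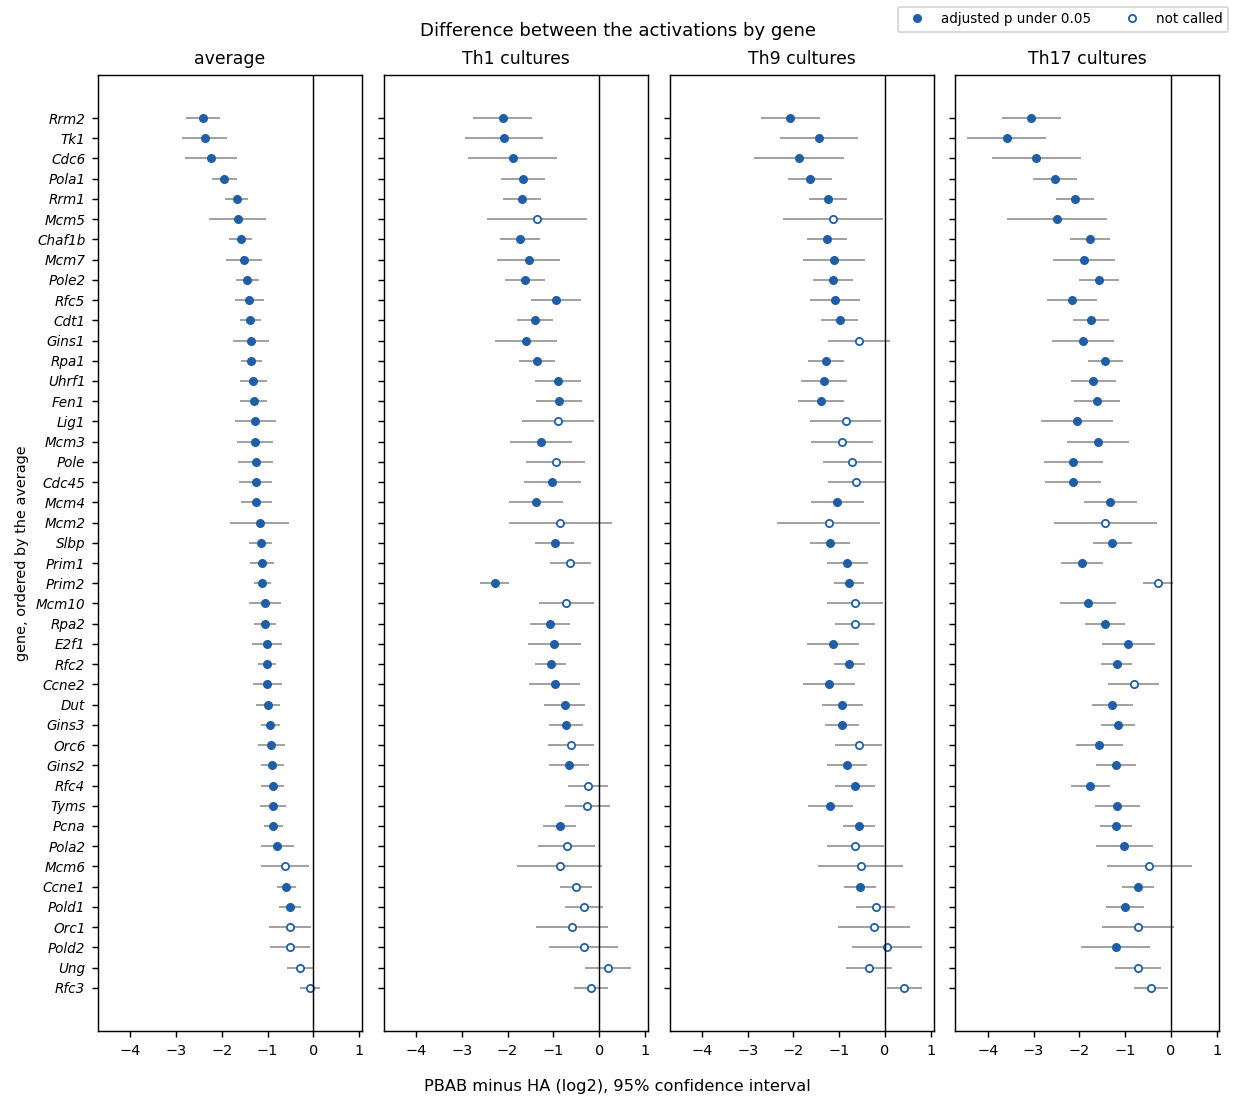
PBAB minus HA (log2, x axis) for each of the 44 genes (y axis, ordered by the average), as the average and for each lineage, with 95% confidence intervals and called genes filled. All 44 averages lie below 0, 39 of them called, and Prim2 stands apart with -2.29 in Th1 and -0.28 in Th17 cultures.

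Deoxynucleotide synthesis held the largest decreases. All 5 of its genes were called lower on average, with a median of -1.68, 4 of 5 in Th1 and 5 of 5 in Th9 and in Th17 cultures. Rrm2, the small subunit of ribonucleotide reductase and the one made in S phase, read 11.79 and 12.05 in Th1 HA, 12.17 and 12.53 in Th9 HA, and 11.81 and 12.41 in Th17 HA. Under PBAB it read 9.92 and 9.71 in Th1, 10.42 and 10.14 in Th9, and 9.49 and 8.65 in Th17. The 2 activations did not overlap, and the average difference was -2.41 ± 0.17 (adjusted p = 6.17e-06).

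Tk1, the S-phase thymidine kinase that salvages thymidine, read 10.35 and 10.19 in Th1 HA, 10.45 and 10.63 in Th9 HA, and 9.94 and 10.28 in Th17 HA. Its PBAB values were 8.48 and 7.91 in Th1, 9.33 and 8.86 in Th9, and 7.22 and 5.81 in Th17, where the second array was below the 5.96 to 6.75 of APC alone. The average difference was -2.37 ± 0.22 (adjusted p = 3.2e-05), and that in Th17 cultures -3.59 ± 0.38 (adjusted p = 0.000385), the largest of any member in any lineage. Rrm1, the large subunit of ribonucleotide reductase, was 10.87 and 11.04, 10.89 and 11.23, and 10.85 and 11.21 under HA in Th1, Th9 and Th17. Under PBAB it was 9.26 and 9.27, 9.81 and 9.82, and 9.08 and 8.78. Its arrays did not overlap, and the difference was -1.68 ± 0.11 (adjusted p = 3.93e-06).

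Dut, which removes dUTP and makes the precursor of thymidylate, was lower by a smaller amount (-0.99 ± 0.12, adjusted p = 0.000134). Tyms, thymidylate synthase, was measured close to background. It read 5.89 and 6.03 in Th1 HA, 6.94 and 6.97 in Th9 HA and 6.14 and 5.98 in Th17 HA, then 5.85 and 5.55, 6.11 and 5.39, and 4.88 and 4.90 under PBAB. Both Th17 PBAB arrays were at or below the detection threshold of 5.07, and the APC alone arrays read 5.74 to 6.11, against a lowest HA value of 5.89. Its average difference was -0.88 ± 0.13 (adjusted p = 0.00048), and in Th1 cultures it was -0.26 ± 0.22 (adjusted p = 0.518). Of its 3 other probe sets, 2 were above the threshold in 0 of 12 activated arrays and the third in 1.

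Of 4 genes of origin licensing, 3 were called lower on average, with a median of -1.15. Cdc6, the ATPase that loads the helicase with the origin recognition complex, read 8.88 and 9.17 in Th1 HA, 9.61 and 9.76 in Th9 HA, and 9.08 and 9.01 in Th17 HA. Under PBAB it read 7.54 and 6.72, 8.23 and 7.38, and 6.83 and 5.38. Its difference was -2.24 ± 0.25 (adjusted p = 9.91e-05) and the activations did not overlap. Cdt1, the partner of Cdc6 in loading, was 11.08 and 11.09, 11.63 and 11.70, and 11.07 and 11.42 under HA in the order Th1, Th9, Th17. Its PBAB values of 9.77 and 9.60, 10.87 and 10.49, and 9.53 and 9.47 were all lower, and the difference was -1.38 ± 0.10 (adjusted p = 9.39e-06).

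Orc6, a subunit of the origin recognition complex, was also lower (-0.92 ± 0.13, adjusted p = 0.000461). Orc1, its ATPase subunit, was not called. It read 8.11 and 7.59, 8.24 and 7.94, and 7.71 and 7.68 under HA, against 7.65 and 6.87, 8.41 and 7.31, and 7.11 and 6.86 under PBAB. The activations overlapped in Th1 and in Th9 cultures. The difference was -0.51 ± 0.21, with a 95% interval of -0.97 to -0.06 and adjusted p = 0.0875. It was called with the replicate number as a block (adjusted p = 0.00698) and with the mean of all its probe sets (adjusted p = 0.0293).

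Of 11 genes of the helicase and its activators, 10 were called lower on average, with a median of -1.25. The counts were 7 in Th1, 4 in Th9 and 9 in Th17 cultures. Of the 6 subunits of the MCM ring, Mcm5 (-1.66 ± 0.28) and Mcm7 (-1.52 ± 0.18) differed most, then Mcm3 (-1.27 ± 0.18), Mcm4 (-1.25 ± 0.15) and Mcm2 (-1.17 ± 0.29, adjusted p = 0.0111). The sixth, Mcm6, was 11.66 and 10.99, 12.15 and 11.37, and 11.82 and 11.21 under HA, and 10.79 and 10.13, 11.62 and 10.83, and 11.47 and 10.62 under PBAB. Replicate 1 was above replicate 2 in all 6 groups, and the activations overlapped in Th9 and Th17 cultures. Its difference of -0.62 ± 0.24 was not called (adjusted p = 0.078), but was with the replicate block (adjusted p = 3.76e-05).

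Mcm10, which helps to start unwinding, was lower by 1.06 (difference -1.06 ± 0.16). Cdc45, the helicase activator, had a difference of -1.26 ± 0.16. The GINS subunits Gins1 (-1.36 ± 0.18), Gins2 (-0.89 ± 0.11) and Gins3 (-0.94 ± 0.10) were called as well. Gins3 had the smallest p of this role (adjusted p = 5.14e-05). It read 7.11 and 7.16, 7.54 and 7.52, and 7.24 and 7.30 under HA, against 6.56 and 6.25, 6.62 and 6.55, and 6.27 and 5.97 under PBAB, with no overlap.

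Primase and the replicative polymerases included 7 of 8 genes called lower on average, with a median of -1.12. Pola1, the catalytic subunit of polymerase alpha, had the smallest p of all 44 (adjusted p = 3.79e-06). It read 8.73 and 8.68, 9.25 and 9.26, and 8.93 and 9.25 under HA, and 7.14 and 6.95, 7.76 and 7.48, and 6.86 and 6.25 under PBAB. The activations did not overlap, and the average difference was -1.94 ± 0.12. The subunits of polymerase epsilon, which copies the leading strand, were lower too, Pole by -1.26 ± 0.17 and Pole2 by -1.44 ± 0.11.

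Polymerase delta, which copies the lagging strand, differed least in this role. Its catalytic subunit Pold1 was lower by -0.51 ± 0.11 (adjusted p = 0.0044). The accessory subunit Pold2 read 9.33 and 8.67, 9.64 and 8.98, and 9.48 and 9.31 under HA, and 9.0 and 8.31, 9.75 and 8.95, and 8.32 and 8.06 under PBAB. The activations overlapped in Th1 and Th9 cultures and were apart in Th17 cultures, where it was called (-1.21 ± 0.34, adjusted p = 0.0356). On average it was not called (-0.51 ± 0.20, 95% interval -0.95 to -0.06, adjusted p = 0.0829), but was with the replicate block (adjusted p = 0.00144). Pola2, the regulatory subunit of polymerase alpha, was lower (-0.79 ± 0.16, adjusted p = 0.00371), and lost the call with the mean of all its probe sets (-0.28, adjusted p = 0.0552).

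The sliding clamp, its loader and the single-strand binding protein gave 6 of 7 genes called lower on average, with a median of -1.01. Rpa1, the large subunit of the single-strand binding protein RPA, was 11.71 and 12.05, 11.99 and 12.18, and 11.74 and 12.07 under HA, and 10.48 and 10.57, 10.83 and 10.77, and 10.46 and 10.49 under PBAB. The difference was -1.36 ± 0.18 in Th1, -1.29 ± 0.18 in Th9 and -1.43 ± 0.18 in Th17 cultures. Pcna, the clamp itself, was lower by -0.87 ± 0.09 on average (adjusted p = 5.73e-05), and Rpa2 by -1.06 ± 0.11.

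Of the 4 clamp loader subunits among the members, Rfc5 (-1.40 ± 0.14), Rfc2 (-1.01 ± 0.09) and Rfc4 (-0.89 ± 0.11) were called lower on average. Rfc3 was not (-0.07 ± 0.10, 95% interval -0.28 to 0.15, adjusted p = 0.69). A further subunit outside the members, Rfc1, was called lower on average by a small amount (-0.30 ± 0.09, adjusted p = 0.0314). Rfc3 read 9.49 and 9.25 in Th1 HA, 9.01 and 9.20 in Th9 HA and 9.13 and 9.25 in Th17 HA. Under PBAB it was 9.18 and 9.19, 9.38 and 9.67, and 8.84 and 8.66. In Th9 cultures both PBAB arrays were above both HA arrays, the only member with that order in any lineage, though the difference of 0.42 ± 0.17 was not called (adjusted p = 0.143). Its other probe set gave -0.05 in Th1, 0.43 in Th9 and -0.32 in Th17 cultures.

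Of the 3 genes of fragment joining and uracil removal, 2 were called lower on average. Fen1, the nuclease that trims the flaps of Okazaki fragments, read 10.55 and 10.61, 11.02 and 11.40, and 10.63 and 11.31 under HA, and 9.65 and 9.73, 9.85 and 9.76, and 9.48 and 9.22 under PBAB, with no overlap (-1.30 ± 0.13, adjusted p = 4.72e-05). Lig1, the ligase that seals the fragments, was lower by -1.27 ± 0.20 (adjusted p = 0.000839). Ung, the glycosylase that removes uracil from DNA, read 8.0 and 7.74, 8.76 and 8.41, and 8.24 and 8.31 under HA and 7.86 and 8.26, 8.49 and 7.97, and 7.40 and 7.70 under PBAB. Its arrays overlapped in Th1 and Th9 cultures, and its difference was not called (-0.30 ± 0.13, 95% interval -0.59 to -0.01, adjusted p = 0.122).

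All 3 genes grouped under replication-coupled chromatin and histone supply were called lower in each lineage and on average. Chaf1b, a subunit of the histone chaperone CAF-1, read 8.29 and 8.29, 8.48 and 8.35, and 7.85 and 8.42 under HA, and 6.57 and 6.55, 7.24 and 7.05, and 6.47 and 6.26 under PBAB. The groups were well apart (-1.59 ± 0.11, adjusted p = 7.27e-06). Uhrf1, which recruits the maintenance methyltransferase to new DNA, was lower by -1.31 ± 0.13, and Slbp, which binds histone messages, by -1.15 ± 0.11.

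The 3 genes of entry into S phase were also lower on average. Ccne2, a cyclin E gene, read 7.40 and 7.71, 7.66 and 8.23, and 7.54 and 7.69 under HA, and 6.57 and 6.59, 6.91 and 6.53, and 6.49 and 7.10 under PBAB. Its arrays did not overlap between activations (-1.0 ± 0.15, adjusted p = 0.000472). Ccne1, the other cyclin E gene, was lower by less (-0.59 ± 0.09, adjusted p = 0.000679), and E2f1, an activating E2F factor, by -1.02 ± 0.15.

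**Figure D3:**
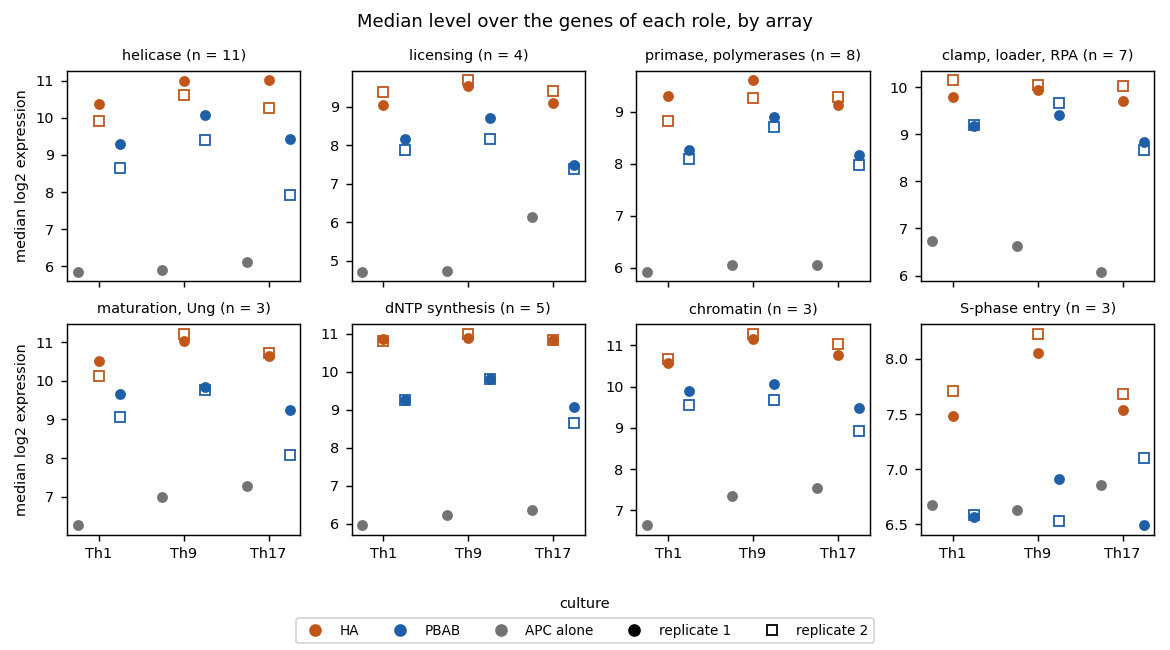
Median log2 expression (y axis) over the genes of each role in each array, by lineage (x axis) and activation (colour), with replicate 1 filled and replicate 2 open. In every panel the PBAB arrays of a lineage lie below its HA arrays, and the dNTP synthesis panel goes from 10.8 to 11.0 under HA to 8.65 to 9.82 under PBAB.

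Other probe sets of the same genes gave the same direction in most cases. The 44 genes had 52 more probe sets, of which 36 were above the detection threshold in all 12 activated arrays. In 35 of those 36 the PBAB mean was below the HA mean, with a median of -1.03, and the exception was the other probe set of Rfc3 (0.02).

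The next question is whether the difference between activations itself differed between lineages. In Th9 against Th1 cultures, 1 member was called (1.37% of all genes called, 0.942% with a higher and 0.426% with a lower difference in Th9), namely Prim2, higher. In Th17 against Th1 cultures, 3 were called (3.53%, 2.15% higher and 1.38% lower): Prim2, higher, and Rfc4 and Prim1, lower. In Th17 against Th9 cultures limma called 0 (1.71%, 0.607% higher and 1.1% lower), with 20 members at an unadjusted p under 0.05, as were 14.1% of all genes. An F test over both interaction terms called the same 3, Prim2 (adjusted p = 0.00172), Rfc4 (0.0258) and Prim1 (0.0485), against 4.19% of all genes.

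The Th17 minus Th1 difference of differences was below 0 in 38 of 44 members, with a median of -0.47 against -0.03 over all genes. That of Th17 minus Th9 was below 0 in 39 of 44, with a median of -0.64 against -0.04. Replicate numbers tied arrays of different groups together, and with the number as a block the counts of called members rose to 10 in Th17 against Th1 (11.8% of all genes) and 15 in Th17 against Th9 cultures (9.52%). In Th17 against Th9 the count was 2 without Th17 HA replicate 1 and 3 without Th17 PBAB replicate 1. In Th17 against Th1 it was 6 without Th17 PBAB replicate 1, and 1 without any of Th1 HA replicate 1, Th1 PBAB replicates 1 and 2, Th17 HA replicate 2 or Th17 PBAB replicate 2.

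The interaction terms of the primase subunits had opposite signs. Prim2, the large subunit, which holds an iron-sulfur cluster, read 10.36 and 10.44 in Th1 HA, 9.56 and 9.38 in Th9 HA, and 9.16 and 9.31 in Th17 HA. Under PBAB it read 8.08 and 8.15, 8.66 and 8.70, and 8.94 and 8.97. So it was highest in Th1 under HA and lowest in Th1 under PBAB among the activated groups, and the difference shrank from -2.29 ± 0.15 in Th1 (adjusted p = 1.53e-05) to -0.79 ± 0.15 in Th9 (adjusted p = 0.00572) and -0.28 ± 0.15 in Th17 cultures (adjusted p = 0.256).

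The Th1 difference of Prim2 was larger than that in Th9 by 1.49 ± 0.21 (adjusted p = 0.00692) and than that in Th17 by 2.01 ± 0.21 (adjusted p = 0.00135). With the mean of its 3 probe sets, the Th9 against Th1 term was 0.72 and not called (adjusted p = 0.0797). A further probe set gave -1.51 in Th1, -0.85 in Th9 and -0.03 in Th17 cultures, and the third gave -0.33, -0.33 and 0.06.

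Prim1, the catalytic subunit, read 10.10 and 10.33, 10.63 and 10.86, and 10.44 and 11.01 under HA, and 9.48 and 9.69, 9.96 and 9.89, and 8.86 and 8.72 under PBAB. The difference grew from -0.63 ± 0.20 in Th1 to -0.82 ± 0.20 in Th9 and -1.94 ± 0.20 in Th17 cultures. The Th17 minus Th1 term was -1.31 ± 0.29 (adjusted p = 0.0356), and it was lost after median centring (adjusted p = 0.0715) and without most of the single arrays (up to adjusted p = 0.126). Its other probe set gave -0.44, -0.86 and -1.76.

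Rfc4, a clamp loader subunit, read 9.11 and 9.30, 9.47 and 9.49, and 9.06 and 9.52 under HA, and 8.96 and 8.96, 9.0 and 8.65, and 7.64 and 7.42 under PBAB. The difference was -0.25 ± 0.19 in Th1, -0.66 ± 0.19 in Th9 and -1.76 ± 0.19 in Th17 cultures, and the Th17 minus Th1 term was -1.51 ± 0.27 (adjusted p = 0.0166). Without Th17 PBAB replicate 2 the adjusted p was 0.0718, the highest of the 5 arrays whose omission lost the call. The term of Th17 against Th9 was -1.10 (adjusted p = 0.0755), and the block brought it under the threshold (adjusted p = 0.0224). The other probe set of Rfc4 gave -0.43, -0.59 and -2.05.

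Tk1 and Cdc45 did not pass the threshold between Th17 and Th9 cultures. The Th17 minus Th9 term was -2.14 for Tk1 (adjusted p = 0.0804) and -1.51 for Cdc45 (adjusted p = 0.0848). Fitting the replicate block called both (adjusted p = 0.0166 and 0.02), as did the fit without Th17 PBAB replicate 1 (0.0264 and 0.0316). Cdc45 read 8.59 and 8.90 in Th17 HA against 7.11 and 6.11 in Th17 PBAB, but 8.99 and 8.84 against 8.42 and 8.16 in Th9 cultures. Th17 PBAB replicate 2 was lower than replicate 1 in both genes. For Tyms the term of Th9 against Th1 was -0.94 and not called (adjusted p = 0.247).

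**Figure D4:**
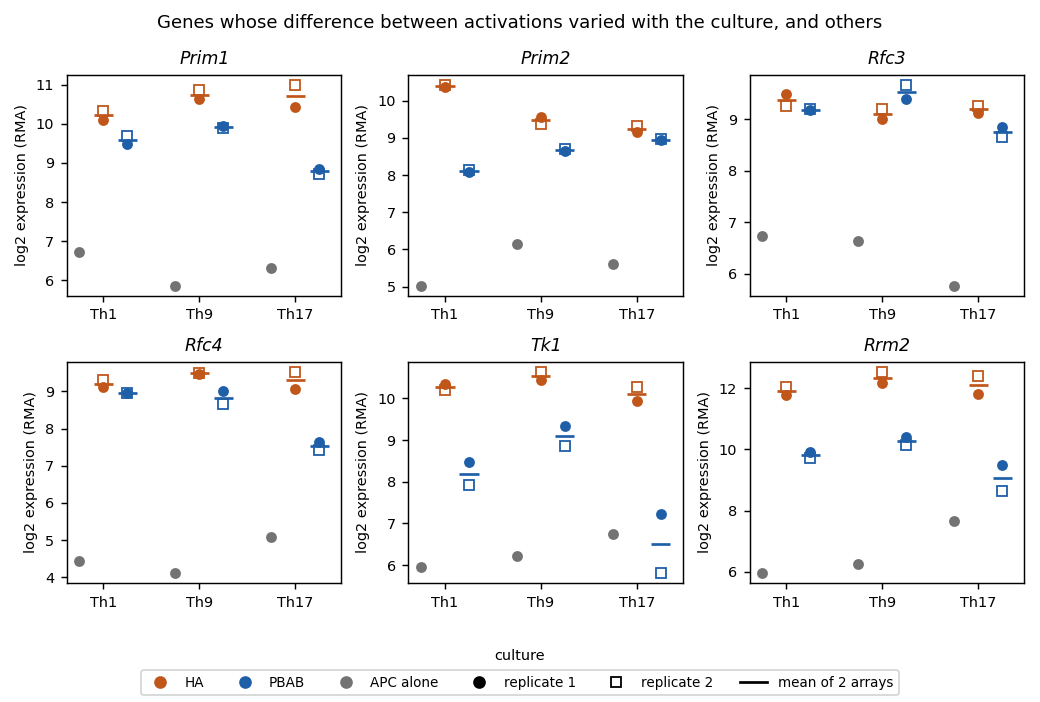
Log2 expression (y axis) of 6 genes in each array, by lineage (x axis) and activation (colour), with replicate 1 filled, replicate 2 open and bars at the mean of 2 arrays. The HA to PBAB gap narrows from Th1 to Th17 in Prim2 (-2.29 to -0.28), widens in Prim1 (-0.63 to -1.94), Rfc4 and Tk1, and is near 0 on average in Rfc3.

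Lineages were then compared within each activation. Under HA few members differed. Th9 against Th1 gave 2 called members (5.34% of all genes, 1.91% higher and 3.43% lower), with Tyms higher in Th9 by 1.00 ± 0.22 (adjusted p = 0.0261) and Prim2 lower by -0.93 ± 0.15 (adjusted p = 0.00401). The next by p, Cdt1, was 0.58 higher and not called (adjusted p = 0.114). Th17 against Th1 gave 1 (6.9%, 3.03% higher and 3.87% lower), again Prim2 (-1.17 ± 0.15, adjusted p = 0.000684), ahead of Ccne1 (-0.41, adjusted p = 0.187) and Prim1 (0.51, adjusted p = 0.211). Th17 against Th9 gave 1 (4.77%, 2.61% higher and 2.16% lower), Tyms (-0.89 ± 0.22, adjusted p = 0.0484), ahead of Pole2 (-0.55, adjusted p = 0.182) and Ccne1 (-0.42, adjusted p = 0.223).

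Both Prim2 calls under HA held without each single array, and both Tyms calls did not. Tyms lost the Th9 against Th1 call without any single one of the 4 arrays compared (adjusted p up to 0.14), and the Th17 against Th9 call without any of 10 arrays (up to 0.25). With the replicate block, Th9 against Th1 under HA gave 8 called members, 7 of them higher in Th9 (12% of all genes). The same fit gave 2 in Th17 against Th1, 1 in each direction. The Th9 HA arrays were above the Th1 HA arrays by a median of 0.41 over the 44 genes.

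Under PBAB, Th17 against Th9 gave 22 called members, all lower in Th17, where 6.37% of all genes were called, 3.74% lower and 2.63% higher. The median over the 44 was -0.86, with 42 of 44 below 0. Tk1 differed most (-2.58 ± 0.38, adjusted p = 0.00305), and Rfc4 (-1.29 ± 0.19, adjusted p = 0.00313) and Cdt1 (-1.18 ± 0.18, adjusted p = 0.0036) were next by p. Lig1 (-1.89 ± 0.35), Cdc6 (-1.70 ± 0.44), Cdc45 (-1.68 ± 0.28), Gins1 (-1.57 ± 0.31) and Pole (-1.45 ± 0.29) were also lower by more than Rrm2 (-1.21 ± 0.29). The count was 5 without Th9 PBAB replicate 1, 10 without Th9 PBAB replicate 2, 4 without Th17 PBAB replicate 2, and 34 with the replicate block (15.2% of all genes).

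Th17 against Th1 under PBAB gave 7 called members (6.99% of all genes, 3.13% lower and 3.86% higher), 6 lower and 1 higher in Th17. Rfc4 (-1.42 ± 0.19, adjusted p = 0.00155), Tk1 (-1.68 ± 0.38, adjusted p = 0.027), Rfc5 (-1.07 ± 0.25), Orc6 (-0.91 ± 0.23), Prim1 (-0.80 ± 0.20) and Ccne1 (-0.62 ± 0.16) were lower, and Prim2 was higher (0.84 ± 0.15, adjusted p = 0.00611). The count was 1 without Th1 PBAB replicate 1, 2 without Th1 PBAB replicate 2 or Th17 PBAB replicate 2, 4 without either Th9 HA array, and 12 with the replicate block (17% of all genes).

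Th9 against Th1 under PBAB gave 3 called members, all higher in Th9 (2.16% of all genes, 1.25% higher and 0.903% lower). They were Cdt1 (1.00 ± 0.18, adjusted p = 0.019), Gins1 (1.42 ± 0.31, adjusted p = 0.042) and Pole2 (0.89 ± 0.20, adjusted p = 0.0469). Leaving out any single PBAB array brought the count to 0 (Th1 replicate 1 or 2, Th9 replicate 1) or 1 (Th9 replicate 2, Th17 replicate 1 or 2). With the replicate block it was 11, all higher in Th9 (5.56%).

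Nearly every member was higher under HA and under PBAB than in the APC alone arrays. Those arrays had high macrophage and low T cell markers, so this is not a comparison before and after activation. HA was above APC alone in 43 of 44 genes called higher (90.7% of all genes called, 49.5% higher and 41.2% lower), with a median difference of 3.68 against 0.36 over all genes. PBAB was above it in 40 genes called higher and below it in 2 (89.8%, 48.7% higher and 41.1% lower), with a median of 2.32 against 0.31. Both comparisons share the 3 APC alone arrays. Direction turned under another scaling for Ccne1 and Tyms in HA minus APC alone (-0.75 after quantile normalization and -0.075 after median centring) and for Ccne1, Mcm10 and Mcm2 in PBAB minus APC alone (-1.24, -0.31 and -0.82 after quantile normalization). All 3 were below all 12 activated arrays in 34 of 44 genes, as in 40.5% of all genes. From 2 to 9 members were at or below the detection threshold on an APC alone array, against 0 or 1 on an activated one.

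Mcm5 was 5.52 ± 0.35 above APC alone under HA and 3.86 ± 0.35 under PBAB, from 4.99 to 6.05 in APC alone. Rrm2 was 5.50 ± 0.21 and 3.09 ± 0.21 above, from 5.96 to 7.67. Dut was 5.45 ± 0.14 and 4.47 ± 0.14 above, from 5.00 to 5.94. The MCM genes Mcm3 (5.22 and 3.95), Mcm6 (5.21 and 4.59) and Mcm4 (5.01 and 3.76) were as far above it. The 14 macrophage markers, all above the detection threshold in these 3 arrays, and the beta-actin 3′ to 5′ difference of 0.74 to 0.99 there, against 0.05 to 0.28 in the activated arrays, move with this comparison, and their part in it was not tested.

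Fen1 and Ccne1 were high in APC alone by the probe set used and lower there by their other one. Probe sets of other members differed in APC alone too. The probe set used and the other one had means there of 8.60 and 4.32 in Mcm2, and of 4.95 and 8.85 in Orc1. Fen1 read 11.11, 10.89 and 11.11 in APC alone, as high as under HA (-0.12 ± 0.16, adjusted p = 0.492) and above PBAB (PBAB lower by -1.42 ± 0.16, adjusted p = 6.97e-06). Its other probe set had means of 5.89 in APC alone, 10.59 under HA and 8.53 under PBAB, and the mean of both was 2.29 and 0.61 above APC alone. Ccne1 read 7.39, 9.32 and 8.19 in APC alone and its other probe set 4.85 on average. Tyms (-0.46 ± 0.16, adjusted p = 0.0162) was the other gene called lower under PBAB than in APC alone, and E2f1 (-0.37 ± 0.18, adjusted p = 0.0815) and Ccne1 (0.22 ± 0.11, adjusted p = 0.0877) were not called.

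Other genes of the pathway were counted from lists made beside the members, to be read against the 17.3% of all genes called lower and 13.2% called higher on average. Of 26 further subunits and factors of the replication machinery, 18 were lower and 2 higher under PBAB on average, with a median of -0.50. Rnaseh2c, a subunit of the nuclease RNase H2 (-0.98 ± 0.10), and the polymerase epsilon subunit Pole3 (-1.05 ± 0.10) were lower, and Pold4, the smallest subunit of polymerase delta, was higher (1.75 ± 0.14, adjusted p = 1.1e-05). Orc4, an origin recognition subunit, was the other higher gene (0.84 ± 0.18). Of 20 genes of fork protection, checkpoint and cohesion, 13 were lower and 1 higher, with a median of -0.77. The checkpoint adaptor Clspn (-2.02 ± 0.15) and the alternative clamp loader subunits Dscc1 (-2.14 ± 0.17) and Chtf18 (-1.70 ± 0.16) were lower, and the checkpoint kinase Atr was higher (0.97 ± 0.17).

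Nucleotide synthesis outside the members was counted in 3 lists. Of 12 genes of purine synthesis, 2 were lower (Pfas, -0.75, and Adsl, -0.50) and 2 higher (Adssl1, 1.98, and Prps1, 0.41), with a median of -0.07, which is near the 17.3% lower and 13.2% higher of all genes. Of 8 genes of pyrimidine synthesis, 3 were lower (Nme1, -0.57, Ctps2, -0.44, and Cmpk1, -0.38) and 0 higher, with a median of -0.34. Of 15 genes of the thymidylate cycle and of deoxynucleotide salvage and removal, 5 were lower and 3 higher, with a median of -0.05. Nudt1, which removes oxidised nucleotides (-1.55 ± 0.11), and the kinases Dck (-1.03 ± 0.20) and Dtymk (-0.98 ± 0.14), which phosphorylate deoxycytidine and thymidylate, were lower. The deaminase Dctd (0.98 ± 0.17), the folate enzyme Mthfd2 (0.99 ± 0.12) and Samhd1, which destroys deoxynucleotides (0.76 ± 0.14), were higher on average. Mthfd2 was called higher in each lineage. In Th1, Th9 and Th17 cultures Dctd differed by 1.367, 1.867 and -0.28, and Samhd1 by -0.346, 1.338 and 1.275.

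Of 28 genes of E2F, RB and G1 cyclin control, 13 were lower and 3 higher, with a median of -0.43. The repressor E2F genes E2f7 (-2.44 ± 0.22) and E2f8 (-2.15 ± 0.22) were lower, as was the RB relative Rbl1 (-1.12 ± 0.11). The inhibitors Cdkn1a (1.01 ± 0.17) and Cdkn1b (0.66 ± 0.22) and the cyclin Ccnd2 (0.32 ± 0.09) were higher on average. Among the other inhibitors in the list, Cdkn2c was lower on average (-1.22 ± 0.14) and Cdkn2d was not called (0.02). Cdkn1a differed by -0.002 in Th1 and by 1.77 in Th17 cultures. Of 12 other chromatin genes 7 were lower, among them the histone chaperones Asf1b (-1.94 ± 0.15) and Nasp (-1.09 ± 0.14) and the maintenance methyltransferase Dnmt1 (-1.07 ± 0.14).

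Of 29 genes of mitosis 28 were lower on average and 0 higher, with a median of -0.90, near that of the members. Of the 29, 6 were called lower in Th1 (9.4% of all genes), 8 in Th9 (6.32%) and 26 in Th17 cultures (10.4%). Birc5, a subunit of the chromosomal passenger complex, had the largest decrease (-2.11 ± 0.18). Of 14 targets of p53, 8 were higher and 0 lower, with a median of 0.52, including Perp (1.83 ± 0.09), Bbc3 (1.54 ± 0.13) and Sesn2 (0.84 ± 0.10). Cdkn1a is in both this list and that of G1 control.

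**Figure D5:**
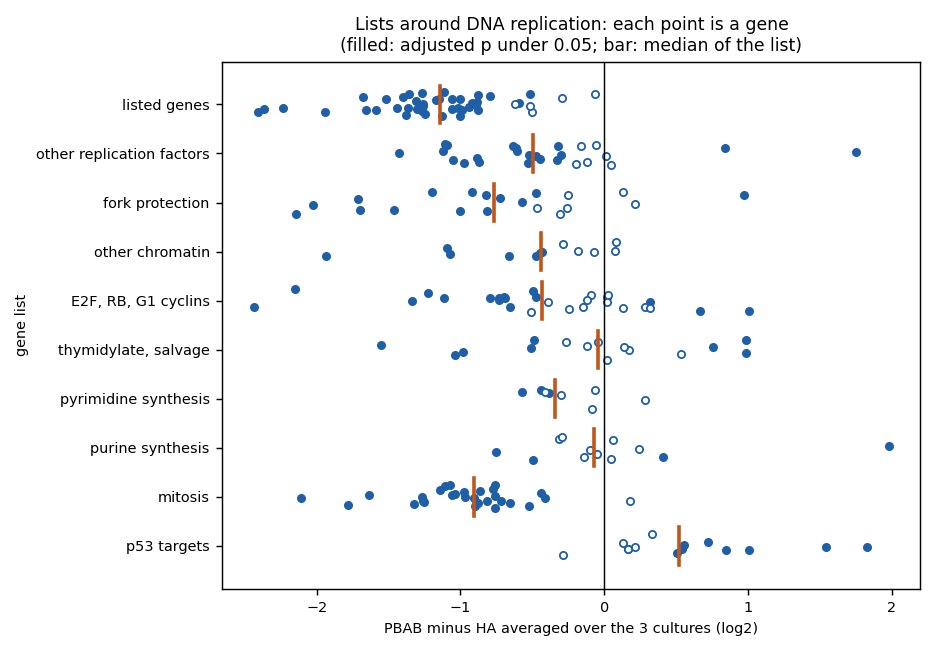
PBAB minus HA averaged over lineages (log2, x axis) for each gene of the 44 listed genes and of 9 other lists (y axis), called genes filled and the median as a bar. The medians are -1.14 for the listed genes, -0.90 for mitosis, -0.07 for purine synthesis and 0.52 for p53 targets.

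Other measures also differed between the activations. Of 14 macrophage and monocyte markers, 8 were lower and 1 higher under PBAB on average, with 2 (Slc40a1 and Cd36) below the detection threshold on every HA array and 7 on every PBAB array, among them C1qb, C1qc and Adgre1. By lineage 0 were lower in Th1, 4 in Th9 and 7 in Th17 cultures, while the members had 27, 27 and 37. Both CD8 markers were lower under PBAB, with summed levels of 321 to 937 under HA and 121 to 507 under PBAB. Of 4 NK cell markers 1 was lower, Klrd1 (-2.11 ± 0.35, and -3.45 ± 0.61 in Th1 cultures), with summed levels of 247 to 2719 under HA (median 2201) and 207 to 863 under PBAB (median 732), and Ncr1 was below the detection threshold on every activated array. The beta-actin 3′ to 5′ difference was 0.05 to 0.11 under HA and 0.12 to 0.28 under PBAB, and the 18S ribosomal RNA probe read 9.27 to 10.89 and 9.98 to 11.45. Their part in the members' difference was not tested.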

How the data were processed

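Total RNA (500 ng) of 15 samples was hybridised to Affymetrix mouse arrays. The log2 values deposited by the authors were used as given. They were made with RMA per the submitters' processing notes. Those notes give no RMA version. Base 2 was inferred from the range of the values. Of 45101 probe sets, 34958 had 1 symbol in a 2016 annotation, 932 several and 9211 none; 18194 genes resulted. A gene was tested if its probe set exceeded the 40th percentile (5.07) in at least 2 arrays. limma 3.58.1 (R 4.3.3) was fitted to 9 group means, with Benjamini-Hochberg adjustment over 15498 genes, and tested on simulated data. The simulated noise was independent between arrays, so that test does not cover the correlation of replicates given below. Figures used Python 3.11.15 and matplotlib 3.10.9.

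Same-numbered replicates deviated together: the correlation of deviations was 0.296 to 0.708 in 15 of 15 group pairs. A fit with the replicate number as a block is therefore given for the counts and for some members whose call it changed. Members whose call it changed within a lineage are not listed singly. Named genes are those with the largest and smallest averaged differences, the smallest p in each role, interaction and lineage contrast, and the 3 smallest p in each other list; other members may be named too. The members and lists were chosen with earlier results of these data known. Alternatives were quantile normalization, median centring, other filters, the mean of all probe sets, array weights, a trended prior, activated arrays only, and leaving out each array.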

Additional observations from a re-analysis of the deposited data

Results flagged for a closer look

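In 4 results, involving 3 genes, the difference between activations itself differed between lineages by limma's interaction term. For Prim2 the PBAB minus HA difference was less negative in Th9 than in Th1 cultures by 1.49 (95% interval 1.04 to 1.95) and less negative in Th17 than in Th1 cultures by 2.01 (1.55 to 2.47). For Rfc4 it was more negative in Th17 than in Th1 cultures, with a term of -1.51 (-2.12 to -0.90). For Prim1 the same term was -1.31 (-1.95 to -0.67). Groups of 2 arrays are too small for a test of single outlying arrays.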

How the results depend on the processing

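The averaged PBAB minus HA calls depended least on the processing: 38 of 39 members were called in every setting, against 30 of 37 in Th17, 13 of 27 in Th9 and 10 of 27 in Th1 cultures. Without each array in turn the counts were 39 to 42 on average, 12 to 31 in Th1, 14 to 26 in Th9 and 31 to 38 in Th17 cultures. For the activation effect they were 1 to 1 (Th9 against Th1), 1 to 6 (Th17 against Th1) and 0 to 3 (Th17 against Th9). Under HA they were 1 to 3, 1 to 1 and 0 to 1, and under PBAB 0 to 3, 1 to 8 and 4 to 21, in the same order. Against APC alone they were 41 to 43 for HA and 40 to 43 for PBAB.

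With the replicate block the counts were 37 in Th1, 37 in Th9, 42 in Th17 cultures and 42 on average. This fit also called a larger share of all genes wherever that share is given above, so higher counts there are not particular to the members. For the counts within each lineage and on average that share is not given, so their rise cannot be judged against all genes. It is not given either for the fits without each array in turn. For the activation effect the block gave 1, 10 and 15, under HA 8, 2 and 1, and under PBAB 11, 12 and 34, in the same order, with 43 for HA and 43 for PBAB against APC alone. The mean of all probe sets gave 0 in the activation effect of Th9 against Th1, 2 in Th17 against Th1 under HA, 0 in Th17 against Th9 under HA and 1 in Th9 against Th1 under PBAB. Quantile normalization gave 0 and 1 in the last pair, array weights 0 in the former and median centring 1 in the latter. The cause was not tested.

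Reversals touched the comparisons with APC alone. With the mean of all probe sets, HA minus APC alone was -0.038 for E2f1, 2.29 for Fen1, -0.091 for Mcm10 and -0.31 for Tyms, and PBAB minus APC alone was 0.61 for Fen1, -0.52 for Mcm10, -0.027 for Orc1 and -0.36 for Pola1. After quantile normalization HA minus APC alone was -0.75 for Ccne1, and PBAB minus APC alone was -1.24 for Ccne1, -0.31 for Mcm10 and -0.82 for Mcm2. Median centring gave -0.075 for Tyms under HA, and PBAB minus APC alone for Ccne1 was -0.34 without the Th1 and 0.63 without the Th9 APC alone array. These scalings moved the median of all genes in HA minus APC alone from 0.36 to 0.01 and -0.13, and in PBAB minus APC alone from 0.31 to 0.01 and -0.15. In Th1 cultures 809 genes were called higher and 1457 lower, and 1122 and 1269 after quantile normalization. The 2 arrays per group and 1 per APC alone group limit the precision, and values near 5.07 are close to background.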
